A study of Mus musculus with 18 samples.

Results

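The mouse liver transcriptome was compared between the middle and the late part of the light phase, zeitgeber time (ZT, hours after lights on) 9 against ZT5. The comparison used 6 of the 18 livers of the series, 3 from ZT5 and 3 from ZT9, chosen by their labelled times, and all 14449 genes tested. All mice were wild-type males, 8 to 9 weeks of age, kept under 12 h of light and 12 h of dark, and the labels give no treatment. A whole liver was taken from each mouse, so that each liver is 1 animal sampled once, and of 5 mice per time the 3 with the best RNA were sequenced as polyA RNA. *P*-values therefore measure the spread between animals of the same time, which the main fit estimated over all 18 livers of the series.

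The liver clock is a transcriptional loop. CLOCK and its partner BMAL1, encoded by *Arntl*, bind E-box elements and activate *Per*, *Cry*, *Ciart* and *Nr1d1*, and the PER and CRY proteins then inhibit CLOCK and BMAL1. REV-ERBα, encoded by *Nr1d1*, represses genes with RORE elements, *Arntl* among them, while ROR proteins activate the same elements, and the PAR bZIP factors DBP, TEF and HLF act through D-box elements. In a nocturnal animal the stretch from ZT5 to ZT9 falls in the rest phase, before the main meals of the night.

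Depth was 11602598, 14378658 and 23242842 estimated reads in ZT5 livers 1, 2 and 3, and 11641015, 10540312 and 10268168 in ZT9 livers 1, 2 and 3. ZT5 liver 3 was thus the deepest of the 6. Values were read as estimated reads per 1000000 of an effective library size, a form inferred from the deposited values, and the depths were computed back from it. They are not divided by transcript length, so levels are compared between livers and not between genes. The smallest possible value, that of 0 reads, lay between 0.0208 and 0.0468 in these livers, and 443 genes were at it in at least 1 of them. Livers of the same time correlated at 0.985 to 0.991 (Pearson's *r* across genes on log2(value + 1)) and livers of different times at 0.979 to 0.988, ranges that overlap, and no pair of livers held identical values. Albumin, the main plasma protein made by hepatocytes, took 7.30%, 5.65% and 6.98% of the summed values at ZT5 and 5.56%, 5.14% and 5.53% at ZT9.

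The livers of ZT5 were not alike in their clock genes. Each liver was placed on the line from the mean of the other ZT5 livers (0%) to the mean of the other ZT9 livers (100%) over the 16 clock genes tested. ZT5 livers 1 and 2 lay at -38.8% and -15.1%, whereas ZT5 liver 3 lay at 59.7%, nearer to ZT9 (distance 0.510 on the log2 scale) than to its own time (0.693). ZT9 livers 1, 2 and 3 lay at 113.5%, 71.8% and 108.6%. ZT5 liver 3 was the only one of the 18 livers that was not nearest to its own time. Whether this liver carries the right time label was not tested. Over the 282 genes called when it was left out (adjusted *P* below 0.05 between ZT9 and ZT5), its median place was 29.9%, and 27.0% of these genes were nearer to ZT9. For ZT5 liver 2 the median place was 23.5%, over 276 such genes, of which 27.5% were nearer to ZT9, and for ZT5 liver 1 it was -12.7%, over 145 genes, with 10.3% nearer to ZT9. These places are descriptions with no test.

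**Figure D1:**
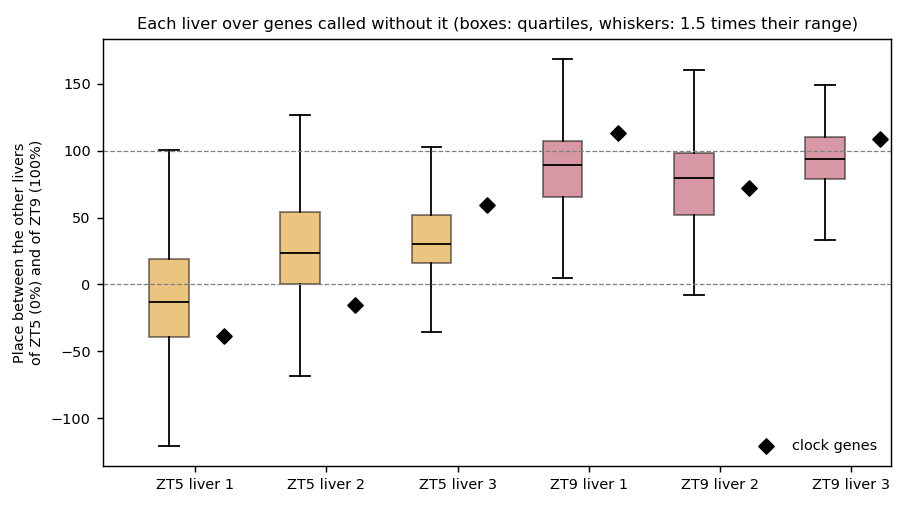
Place of each of the 6 livers between the other livers of ZT5 (0%) and of ZT9 (100%), on the vertical axis, in percent. Boxes give the quartiles over the genes called without that liver, with the median as a line, whiskers reach up to 1.5 times the quartile range, and diamonds give the place over 16 clock genes; ZT5 liver 3 lies at 59.7% by its clock genes and at 29.9% by the median of the other measure.

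A few other livers stood apart in single gene groups. In ZT5 liver 1 the haemoglobin transcripts of red cells were high, with *Hba-a2* at 261 against 68.6 and 31.2 in the other ZT5 livers and 45.3, 31.0 and 25.2 at ZT9. The same liver held *Cyp2a4* at 88.4, with 2.37 or less in the other 5 livers. *Cyp2a4* is nearly identical to *Cyp2a5*, and its value is uncertain. In ZT9 liver 2 the acute phase transcripts *Saa1* and *Saa2* reached 901 and 686, against 59.4 and 17.4 in ZT9 liver 1 and 34.6 and 11.6 in ZT9 liver 3. These genes were picked out after their values were seen, and none of them was called.

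From ZT5 to ZT9, 334 of the 14449 genes changed (2.31%) at an adjusted *P* below 0.05 (limma, two-sided). Of these, 153 were higher at ZT9 (1.06%) and 181 lower (1.25%). The log2 differences of the called genes ran from -2.07 to 2.16, with medians of 0.587 among the higher and -0.659 among the lower, against -0.015 over all genes. A change of over 2-fold on this scale was seen in 27 of the higher and 35 of the lower genes. The 3 livers of one time lay wholly above the 3 of the other in 2433 genes (16.8%), and in 333 of the 334 called genes. The exception was *1600002H07Rik*, for which ZT9 liver 2 (53.4) fell just under ZT5 liver 3 (55.3). In the same model the step from ZT1 to ZT5 held 912 calls (6.31%), that from ZT9 to ZT13 1605 (11.1%), that from ZT13 to ZT17 300 (2.08%), that from ZT17 to ZT21 333 (2.30%) and that from ZT21 to ZT1 29 (0.201%). Neighbouring steps share livers.

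The list was shorter whichever of the 6 livers was left out, by an amount that differed between livers. Each such fit also has fewer livers at 1 time, and the part of that in the drop was not tested. Without ZT5 liver 3 there were 282 calls and without ZT9 liver 2 there were 260, but without ZT5 liver 1, ZT9 liver 1 or ZT9 liver 3 the count fell to 145, 186 and 138. With only the 6 livers in the model, in place of a spread estimated over all 18, 97 genes were called.

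**Figure D2:**
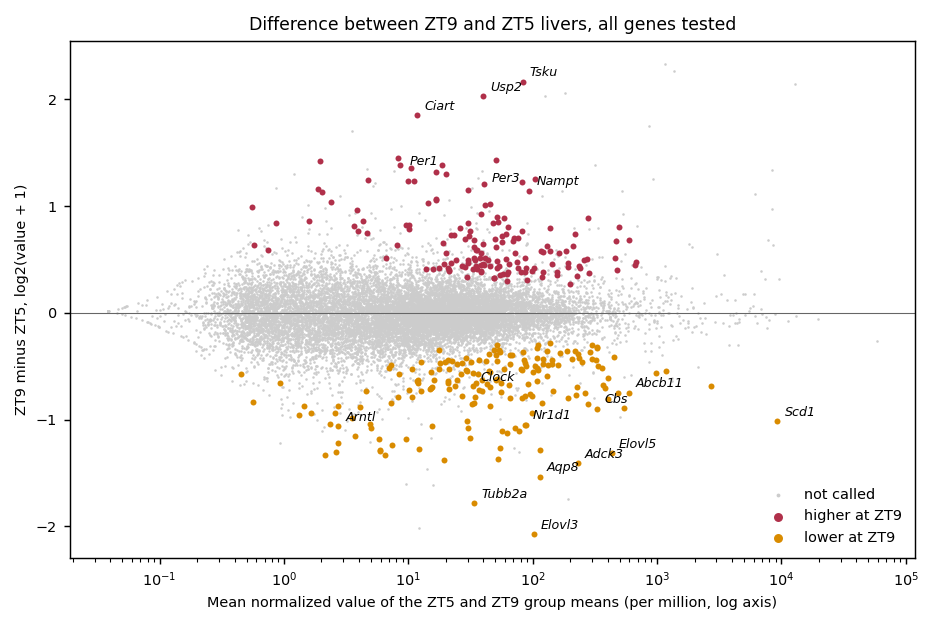
Log2 difference between ZT9 and ZT5 (vertical axis, on log2(value + 1)) against the mean normalized value of both times (horizontal log axis, per 1000000) for the 14449 genes tested. Red points are the 153 genes called higher at ZT9, orange points the 181 called lower and grey points the rest; named genes are labelled, with *Tsku* and *Usp2* at the top and *Elovl3* at the bottom of the called genes.

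Among the activators of the clock loop, *Arntl* and *Clock* fell, and *Npas2* and *Rora* did not pass the test. *Clock* stood at 40.2, 47.2 and 35.5 in the ZT5 livers and at 26.5, 26.0 and 22.4 in the ZT9 livers. The groups did not overlap, and the log2 difference was -0.69 ± 0.10 (SE, 3 livers per time), with an adjusted *P* of 0.00106. *Arntl* was at 5.71, 5.09 and 1.69 at ZT5 and at 1.40, 0.978 and 1.55 at ZT9, a difference of -1.06 ± 0.24 (adjusted *P* = 0.0253). ZT5 liver 3 came close to the ZT9 livers here, and the call was lost with any liver but that one left out (adjusted *P* up to 0.147), with voom weights (0.340) and with the 6 livers alone (0.252). *Arntl* had already fallen steeply from ZT1, where its mean was 31.6, and it rose again to 6.69 at ZT13. *Npas2*, a paralogue of *Clock*, was at 0.527, 0.236 and 0.354 at ZT5 and at 0.0426, 0.140 and 0.0468 at ZT9, where livers 1 and 3 were at their floors. The ZT9 livers lay wholly below the ZT5 livers, and the gene was not called (adjusted *P* = 0.470) except with no pseudocount (0.0293). *Rora*, which encodes an activator of RORE elements, showed 0.07 ± 0.12 (adjusted *P* = 0.885).

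Of the 11 repressors, 4 rose and 1 fell, beside 1.06% and 1.25% of all genes. *Ciart*, also called CHRONO, an inhibitor of CLOCK and BMAL1, was at 2.31, 3.36 and 9.35 at ZT5 and at 21.9, 14.8 and 18.4 at ZT9. ZT5 liver 3 lay between the other livers of ZT5 and those of ZT9, and the difference was 1.85 ± 0.30 (adjusted *P* = 0.00204). *Per3* went from 20.4, 19.5 and 34.1 to 58.5, 50.5 and 61.1, with no overlap and a difference of 1.21 ± 0.19 (adjusted *P* = 0.00132). *Per1* went from 5.15, 13.6 and 17.0 to 28.5, 24.4 and 31.3, a difference of 1.30 ± 0.32 (adjusted *P* = 0.0364). *Per2* went from 14.8, 14.9 and 25.4 to 43.9, 30.4 and 50.1, a difference of 1.15 ± 0.23 (adjusted *P* = 0.0107). In each of these 4 genes the highest ZT5 value was that of liver 3. *Per3* stayed called whichever of the 6 livers was left out, *Per2* was not called without ZT5 liver 1 or ZT9 liver 3 (adjusted *P* up to 0.0686), and *Per1* was not called without ZT5 liver 1 or any one of the ZT9 livers (up to 0.174). *Per1* lost its call in 9 of the 16 alternative analyses, other pseudocounts and moderations included.

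The *Per* genes went separate ways over the next step. *Per2* continued to rise to ZT13, to a mean of 103 (log2 difference from ZT9 of 1.31, adjusted *P* = 0.00121), whereas *Per3* fell to 30.8 over that step (-0.86, adjusted *P* = 0.00639). *Per1* was at 21.0 at ZT13 (-0.41, adjusted *P* = 0.462).

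*Nr1d1* was the repressor that fell. It stood at 119, 142 and 91.6 at ZT5 and at 43.9, 81.4 and 47.2 at ZT9, and the lowest ZT5 liver, again liver 3, was close to the highest ZT9 liver. Its difference was -1.05 ± 0.26 (adjusted *P* = 0.0407), a call that was lost in 9 of the 16 alternative analyses, among them those without ZT5 liver 1, ZT5 liver 2, ZT9 liver 1 or ZT9 liver 3 (adjusted *P* up to 0.180). Its paralogue *Nr1d2* was at 97.3, 121 and 112 at ZT5 and at 122, 140 and 114 at ZT9, with overlapping groups and a difference of 0.18 ± 0.15 (adjusted *P* = 0.695). Both were lower at ZT13 than at ZT9, at means of 8.37 for *Nr1d1* and 48.5 for *Nr1d2* (adjusted *P* of 6.34e-06 and 1.28e-05). The remaining 6 repressors did not pass the test. *Cry1* showed a difference of 0.41 ± 0.17 (adjusted *P* = 0.292), with ZT9 liver 1 at 12.4 and the others at 6.85 and 7.73. For *Cry2*, *Bhlhe40*, *Bhlhe41* and *Nfil3* the differences were 0.20, 0.05, -0.12 and -0.03.

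Without ZT5 liver 3, the liver nearest to ZT9, *Arntl* and *Clock* were still called lower, and 4 repressors were higher and 1 lower, as with all livers. Without ZT5 liver 1, *Arntl* was lost and 2 repressors were called higher and none lower. With the 6 livers alone in the model, *Per3* was the 1 clock gene called (adjusted *P* = 0.0384).

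**Figure D3:**
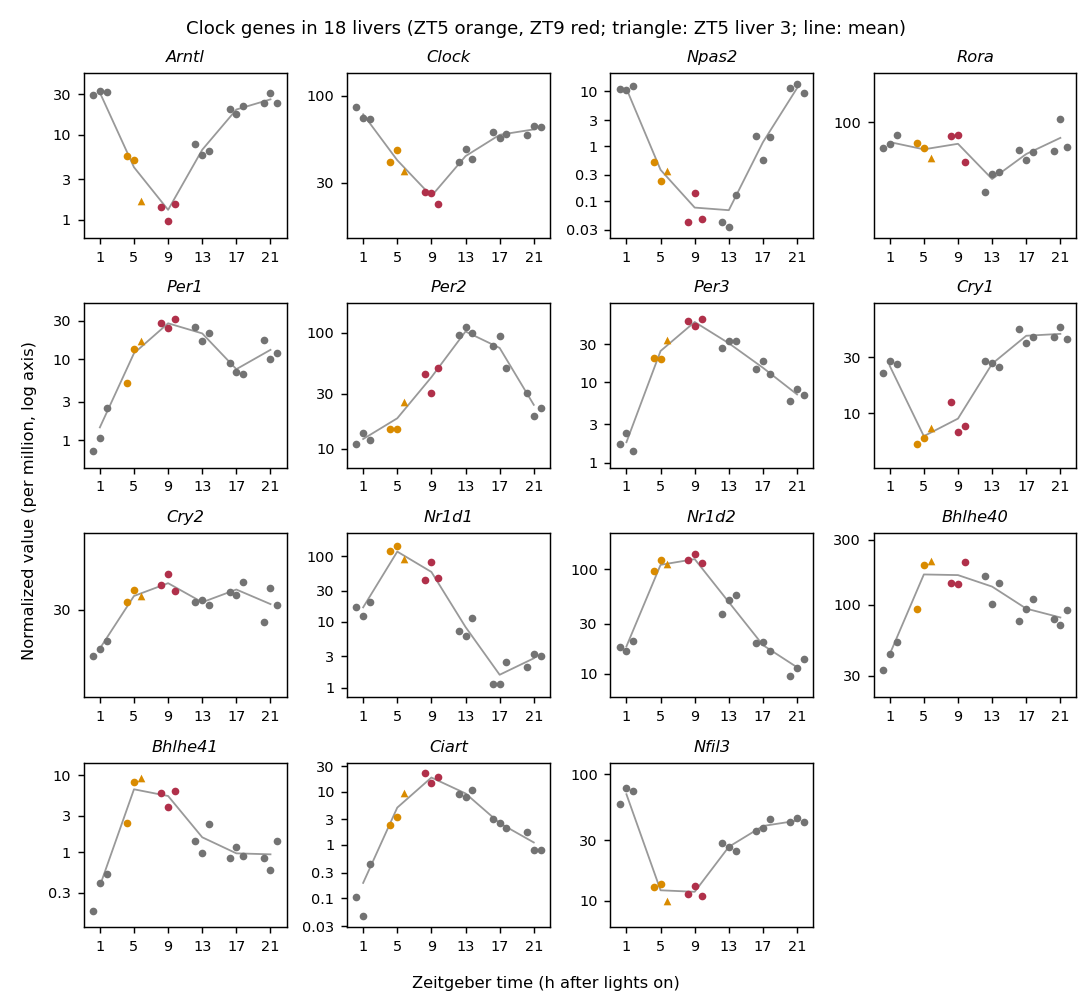
Normalized value (vertical log axis, per 1000000) of clock genes in each of the 18 livers by zeitgeber time in hours (horizontal axis). Each point is 1 liver, orange at ZT5, red at ZT9 and grey at other times, the triangle is ZT5 liver 3 and the line joins the group means; *Per1*, *Per2*, *Per3* and *Ciart* rise between the coloured groups and *Arntl*, *Clock* and *Nr1d1* fall.

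Promoter sequence was available from the RefSeq table of GRCm38.p6 for 13 of the 16 clock genes and for 116 of the 153 higher and 140 of the 181 lower genes. The 250 bases before each start site were searched on both strands for the E-box CACGTG and the D-box TTATGNAA, and also for the RORE TAGGTCA and the cyclic AMP response element TGACGTCA. Windows of 3 genes are printed because they belong to repressors that rose and hold the elements through which clock factors act, with the elements in capitals and the sequence 5′ to 3′ on the strand of the gene. The *Ciart* window holds 3 E-boxes (chr3:95882229-95882478, minus strand), the *Per1* window an E-box and a D-box (chr11:69098699-69098948, plus strand, before a start site inside the gene) and the *Per3* window 2 D-boxes (chr4:151044666-151044915, minus strand). Of the clock genes not called, *Cry1* and *Bhlhe41* have an E-box and *Nfil3* has a RORE. None of these elements is in the windows of *Arntl*, *Clock*, *Npas2*, *Rora*, *Cry2*, *Nr1d1* and *Nr1d2* or in another *Per1* window.
Ciart: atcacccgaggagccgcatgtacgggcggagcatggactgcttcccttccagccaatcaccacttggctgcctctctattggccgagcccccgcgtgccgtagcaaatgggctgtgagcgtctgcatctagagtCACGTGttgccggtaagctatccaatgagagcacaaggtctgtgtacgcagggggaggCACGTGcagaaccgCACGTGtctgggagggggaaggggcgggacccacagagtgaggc
Per1: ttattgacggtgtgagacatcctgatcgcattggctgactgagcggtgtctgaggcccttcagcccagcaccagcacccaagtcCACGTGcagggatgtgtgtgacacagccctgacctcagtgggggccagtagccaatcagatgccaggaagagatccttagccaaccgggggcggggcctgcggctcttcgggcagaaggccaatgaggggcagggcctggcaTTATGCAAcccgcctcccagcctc
Per3: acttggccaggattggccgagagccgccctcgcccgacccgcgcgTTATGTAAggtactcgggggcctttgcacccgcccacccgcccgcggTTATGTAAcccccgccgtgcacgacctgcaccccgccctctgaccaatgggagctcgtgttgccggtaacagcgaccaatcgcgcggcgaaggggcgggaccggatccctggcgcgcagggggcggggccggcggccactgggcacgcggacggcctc

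Over all called genes, a D-box was found in 9.74% of the windows of genes that were higher at ZT9 (15 of 154 windows) and in 1.93% of those of genes that were lower (4 of 207), beside 2.05% over all genes tested. The E-box was in 12.3% of the windows of the higher genes and 8.70% of those of the lower, beside 8.04% over all genes tested. The RORE was in 2.60% and 3.86%, beside 1.86%, and the cyclic AMP response element in 1.95% and 0.483%, beside 2.45%. In all 32851 windows of the table the E-box was in 6.02%, the D-box in 3.07%, the RORE in 2.23% and the cyclic AMP response element in 1.55%. A gene can have several windows, and a match of these letters does not show that a factor binds there.

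The higher genes with a D-box were 15, and the 6 with the largest rises were *Per1*, *Map2k6*, *Slc16a12*, *Per3*, *Coq10b* and *Nrg4*. The sites of the 4 that are not clock genes are given with 12 bases on each side and the D-box letters, or those of its reverse strand, in capitals. *Map2k6* is at chr11:110478272-110478303 (plus strand), *Slc16a12* at chr19:34747385-34747416 (minus strand), *Coq10b* at chr1:55052596-55052627 (plus strand) and *Nrg4* at chr9:55283818-55283849 (minus strand). The sites of *Map2k6* and *Nrg4* lie inside the annotated gene, before a later start site.
Map2k6: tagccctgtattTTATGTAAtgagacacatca
Slc16a12: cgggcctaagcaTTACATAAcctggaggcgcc
Coq10b: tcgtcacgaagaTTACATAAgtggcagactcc
Nrg4: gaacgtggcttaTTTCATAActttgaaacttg

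*Map2k6*, a kinase that activates p38, rose from 4.99, 6.10 and 5.27 to 11.5, 16.2 and 15.1 (log2 difference 1.23 ± 0.14, adjusted *P* = 6.47e-05). *Slc16a12*, a creatine transporter, rose from 38.0, 49.0 and 60.1 to 112, 121 and 109 (1.22 ± 0.15, adjusted *P* = 0.000150). *Coq10b*, which encodes a coenzyme Q binding protein, rose from 19.2, 24.9 and 35.6 to 51.4, 49.4 and 48.9 (0.93 ± 0.16, adjusted *P* = 0.00280). In the 3 genes every ZT9 liver lay above every ZT5 liver.

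The list of PAR bZIP factors and clock outputs held the most calls among those examined. Its members were chosen with earlier results of these data known, so its count is a description. Of the 15 PAR bZIP factors and clock outputs tested, 7 rose and 1 fell, beside 1.06% and 1.25% of all genes, with a median log2 difference of 0.70 beside -0.015. *Usp2*, a ubiquitin-specific protease, was at 9.20, 13.9 and 24.9 at ZT5 and at 66.8, 62.8 and 60.7 at ZT9. The ZT9 livers were tightly grouped and the ZT5 livers were not, and the difference was 2.03 ± 0.22 (adjusted *P* = 4.55e-05). *Nampt*, the rate-limiting enzyme of the NAD salvage pathway, went from 47.7, 53.5 and 74.8 to 148, 117 and 122 (1.14 ± 0.13, adjusted *P* = 4.55e-05). *Tspan4*, a tetraspanin, went from 23.4, 26.8 and 31.7 to 52.5, 58.0 and 56.6 (1.01 ± 0.13, adjusted *P* = 0.000158). *Tef* went from 151, 148 and 203 to 262, 242 and 267 (0.63 ± 0.10, adjusted *P* = 0.00108). No ZT5 liver reached the ZT9 range in any of the 4.

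*Wee1*, a kinase that holds back mitosis, *Gys2*, the liver glycogen synthase, and *Por*, the reductase that supplies electrons to cytochromes P450, also rose, by 1.23, 0.49 and 0.89. *Pnp*, purine nucleoside phosphorylase, fell by 0.52 (adjusted *P* = 0.0429), and its call was lost in 9 of the 16 alternative analyses, among them 5 of the 6 that left out a liver (adjusted *P* up to 0.232). *Dbp*, named here after its values were seen, was at 60.3, 68.3 and 83.2 at ZT5 and at 106, 112 and 113 at ZT9, without overlap, but did not pass the test (0.65, adjusted *P* = 0.0688). *Hlf* showed 0.32 (adjusted *P* = 0.217). *Alas1*, the first enzyme of heme synthesis, ranged from 82.6 to 381 at ZT5 and from 199 to 648 at ZT9 (adjusted *P* = 0.432), a spread within each time that was wider than the change.

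By the size of the change, *Tsku* led the rises and *Elovl3* the falls. *Tsku* (ENSMUSG00000049580, chromosome 7, 98350668 to 98361328), which encodes the secreted protein Tsukushi, was at 19.1, 27.2 and 39.4 at ZT5 and at 166, 68.1 and 178 at ZT9. All ZT9 livers were above all ZT5 livers, with ZT9 liver 2 well below the other two, and the difference was 2.16 ± 0.35 (adjusted *P* = 0.00178). Its mean at ZT13 was 258, and the step from ZT9 to ZT13 did not pass the test (adjusted *P* = 0.0686). After *Usp2* and *Ciart*, the next were *Ces4a*, *Col27a1*, *Gm2163*, *Lonrf1*, *Eif4ebp3*, *Cml5* and *Mup8*, with log2 differences of 1.45 to 1.32. *Lonrf1*, a RING finger protein gene, rose from 4.11, 3.51 and 4.99 to 18.3, 8.90 and 11.9 (adjusted *P* = 0.00253), and *Col27a1*, a fibrillar collagen gene, from 15.0, 37.9 and 29.3 to 85.8, 49.6 and 84.1 (adjusted *P* = 0.00691). *Eif4ebp3*, an inhibitor of translation initiation, rose from 8.70, 12.1 and 8.79 to 27.8, 25.4 and 28.3, with an adjusted *P* of 0.0492, and lost its call whichever of the 6 livers was left out. *Ces4a*, *Gm2163* and *Mup8* lost theirs in 9, 10 and 7 of the 16 alternative analyses, while *Tsku*, *Usp2* and *Lonrf1* lost none. *Col27a1* lost its call in 2, without ZT9 liver 3 (adjusted *P* = 0.0501) and with the 6 livers alone (0.110). *Cml5* lost its call in 1, with the 6 livers alone (0.0826). *Ces4a*, *Gm2163*, *Cml5* and *Mup8* belong to families of related genes among which reads may be divided, to an extent that was not tested, and their values are uncertain.

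*Elovl3* (ENSMUSG00000038754, chromosome 19, 46131897 to 46135694), an elongase of very long fatty acids, was at 164, 216 and 117 at ZT5 and at 47.1, 29.9 and 37.3 at ZT9. The difference was -2.07 ± 0.23 (adjusted *P* = 4.70e-05), on the way from a mean of 791 at ZT1 to its lowest mean at ZT9. *Tubb2a* (ENSMUSG00000058672, chromosome 13, 34074274 to 34078007), a beta tubulin, fell from 64.9, 55.5 and 39.4 to 14.9, 15.4 and 13.2 (-1.78 ± 0.15, adjusted *P* = 2.97e-06). Its mean was lowest at ZT9 of all 6 times, and it rose again to 62.5 at ZT13 (adjusted *P* = 1.69e-07). *Adck3* (ENSMUSG00000026489, chromosome 1, 180165238 to 180199602), a kinase-like protein needed for coenzyme Q synthesis, fell from 362, 338 and 306 to 134, 124 and 118. It had the smallest *P* of all genes (-1.41 ± 0.10, adjusted *P* = 3.78e-07). *Aqp8*, a water channel, fell from 132, 182 and 197 to 61.3, 67.0 and 45.9 (-1.53 ± 0.21, adjusted *P* = 0.000321). *St5*, *Asap2*, *Hamp2*, *Vldlr* and *Dhrs9* completed the 10 largest falls together with *Elovl5*, with differences between -1.38 and -1.30. *Elovl3*, *Tubb2a*, *Adck3*, *Aqp8*, *St5*, *Asap2* and *Elovl5* were called in every one of the 16 alternative analyses. *Vldlr* and *Dhrs9* were low (means of 3.53 and 4.21 at ZT5) and lost their calls without ZT5 liver 1, as did *Hamp2*, a near copy of the hepcidin gene *Hamp*.

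The called genes of the de novo lipogenesis list, which holds regulators and elongases beside the synthesis enzymes, also fell. Of 21 members of the de novo lipogenesis list, 4 fell and none rose, beside 1.25% of all genes lower and 1.06% higher, with a list median of -0.09 beside -0.015 over all genes. The count of falls was 2 without ZT5 liver 1 or ZT9 liver 3, and 1 gene was called higher without ZT5 liver 3 or ZT9 liver 2. *Elovl5*, an elongase of polyunsaturated fatty acids, fell from 741, 524 and 591 to 262, 263 and 215 (-1.31 ± 0.16, adjusted *P* = 8.73e-05). *Insig2*, which holds the SREBP escort protein SCAP in the endoplasmic reticulum, fell from 182, 171 and 131 to 77.2, 70.2 and 51.2 (-1.28 ± 0.14, adjusted *P* = 3.32e-05). *Acss2*, the cytosolic acetyl-CoA synthetase, fell from 390, 334 and 352 to 244, 193 and 162 (-0.86 ± 0.18, adjusted *P* = 0.0139). *Scd1*, the stearoyl-CoA desaturase, fell from 16023, 10374 and 11110 to 6566, 5795 and 5917, and with a difference of -1.01 ± 0.25 it passed narrowly (adjusted *P* = 0.0415). Its call was lost in 9 of the 16 alternative analyses, among them those without any one of the livers but ZT5 liver 2 (adjusted *P* up to 0.198). *Fasn*, *Acly* and *Srebf1*, named after their values were seen, overlapped between the times, with differences of -0.19, -0.37 and 0.16. The means of *Elovl5* were 673 and 618 at ZT1 and ZT5 and 247 and 243 at ZT9 and ZT13, and neither the step before (adjusted *P* = 0.714) nor the step after (0.941) passed the test. *Plin2*, a coat protein of lipid droplets, was the single call among 34 genes of fatty acid oxidation and ketogenesis, beside 1.25% of all genes lower, and fell by 0.67 (adjusted *P* = 0.0239). This list held 0 calls without ZT5 liver 1 or ZT9 liver 3, without the trend in the moderation and with the 6 livers alone.

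Of 21 genes of bile acid synthesis and transport, 3 fell and none rose, beside 1.25% and 1.06% of all genes. Without ZT5 liver 2, 3 were lower and 3 higher. *Abcb11*, the bile salt export pump, was at 736, 789 and 695 at ZT5 and at 454, 448 and 417 at ZT9 (-0.75 ± 0.08, adjusted *P* = 4.27e-05). *Hsd3b7*, an enzyme of the modification of the sterol ring, was at 464, 476 and 476 at ZT5 and at 278, 303 and 287 at ZT9 (-0.71 ± 0.08, adjusted *P* = 7.47e-05). The spread within either time was far smaller than the distance between them. *Acox2*, an oxidase that shortens the side chain, fell by 0.49 (adjusted *P* = 0.0159), and its call was lost in 5 of the 16 alternative analyses, among them those without ZT5 liver 1, ZT9 liver 2 or ZT9 liver 3 (adjusted *P* up to 0.0894) and with the 6 livers alone. *Cyp7a1*, the rate-limiting enzyme of bile acid synthesis, was at 62.8, 37.2 and 118 at ZT5 and at 121, 69.0 and 129 at ZT9 and did not pass the test (0.65, adjusted *P* = 0.592).

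Of 26 cholesterol genes, 1 fell, beside 1.25% of all genes. *Scap*, the SREBP escort protein, was at 209, 147 and 148 and then at 120, 127 and 110 (-0.48 ± 0.12, adjusted *P* = 0.0429), and its call was lost in 8 of the 16 alternative analyses. ZT9 liver 2 had the highest value of the ZT9 livers in 24 of the 26 genes and the highest of all 6 livers in 16. *Hmgcs1*, named for its spread at ZT9, was at 451, 286 and 382 at ZT5 and at 138, 460 and 146 at ZT9, so that ZT9 liver 2 lay above every ZT5 liver and the other two lay below. It was also the liver with high *Saa1*, and the part of that in these values was not tested. Without ZT9 liver 2, 3 cholesterol genes were called lower.

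The called genes of amino acid catabolism and the urea cycle all fell. Of 31 genes, 6 were lower and none was higher, beside 1.25% and 1.06% of all genes, with a median of -0.28 beside -0.015 over all genes, and in 12 genes all ZT9 livers were below all ZT5 livers (8.83% of all genes), with none the other way. *Cbs*, the first enzyme that takes homocysteine to cysteine, fell from 550, 380 and 354 to 187, 240 and 253 (-0.90 ± 0.14, adjusted *P* = 0.00119). *Cth*, the enzyme of the next step, fell from 343, 292 and 361 to 219, 170 and 203 (-0.75 ± 0.16, adjusted *P* = 0.0138). *Hal*, which starts the breakdown of histidine, fell from 582, 466 and 488 to 242, 315 and 323 (-0.81 ± 0.13, adjusted *P* = 0.00178). In the urea cycle, *Ass1*, argininosuccinate synthase, fell from 4428, 2699 and 2974 to 2050, 2083 and 2006 (-0.68 ± 0.14, adjusted *P* = 0.0107). ZT5 liver 1 was the highest of its group for *Cbs*, *Hal* and *Ass1*. *Oat* and *Gls2*, enzymes of ornithine and glutamine breakdown, also fell, by 0.75 and 0.44. The count was 3 without ZT5 liver 1 or ZT9 liver 2, 4 without ZT5 liver 3 or ZT9 liver 1, 2 without ZT9 liver 3 and 3 with the 6 livers alone, in each case with none higher.

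The called chaperones of the endoplasmic reticulum rose. Of 29 genes of folding and the unfolded protein response, 3 rose and none fell, beside 1.06% and 1.25% of all genes, the median was 0.28, and in 13 genes every ZT9 liver was above every ZT5 liver (8.01% of all genes). *Manf*, a secreted protein of the endoplasmic reticulum, rose from 48.6, 38.6 and 50.9 to 89.8, 74.2 and 78.3 (0.80 ± 0.16, adjusted *P* = 0.0118). *Hyou1*, a large chaperone, rose from 93.0, 101 and 106 to 224, 141 and 166 (0.79 ± 0.18, adjusted *P* = 0.0232). *Dnajb9*, a co-chaperone of BiP, rose from 41.0, 40.7 and 56.7 to 80.7, 71.3 and 77.8 (0.74 ± 0.18, adjusted *P* = 0.0388). BiP itself, *Hspa5*, named after its values were seen, was at 544, 477 and 572 and then at 835, 643 and 698, without overlap but not called (0.45, adjusted *P* = 0.172). Without ZT5 liver 2 or ZT9 liver 1 no gene of this list was called, and 1 was without ZT5 liver 1 or ZT9 liver 3, with depth as a covariate, without the trend in the moderation and with the 6 livers alone. *Manf* and *Hyou1* were at their lowest mean at ZT5 and rose further by ZT13 (adjusted *P* of 0.00256 and 0.00794).

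**Figure D4:**
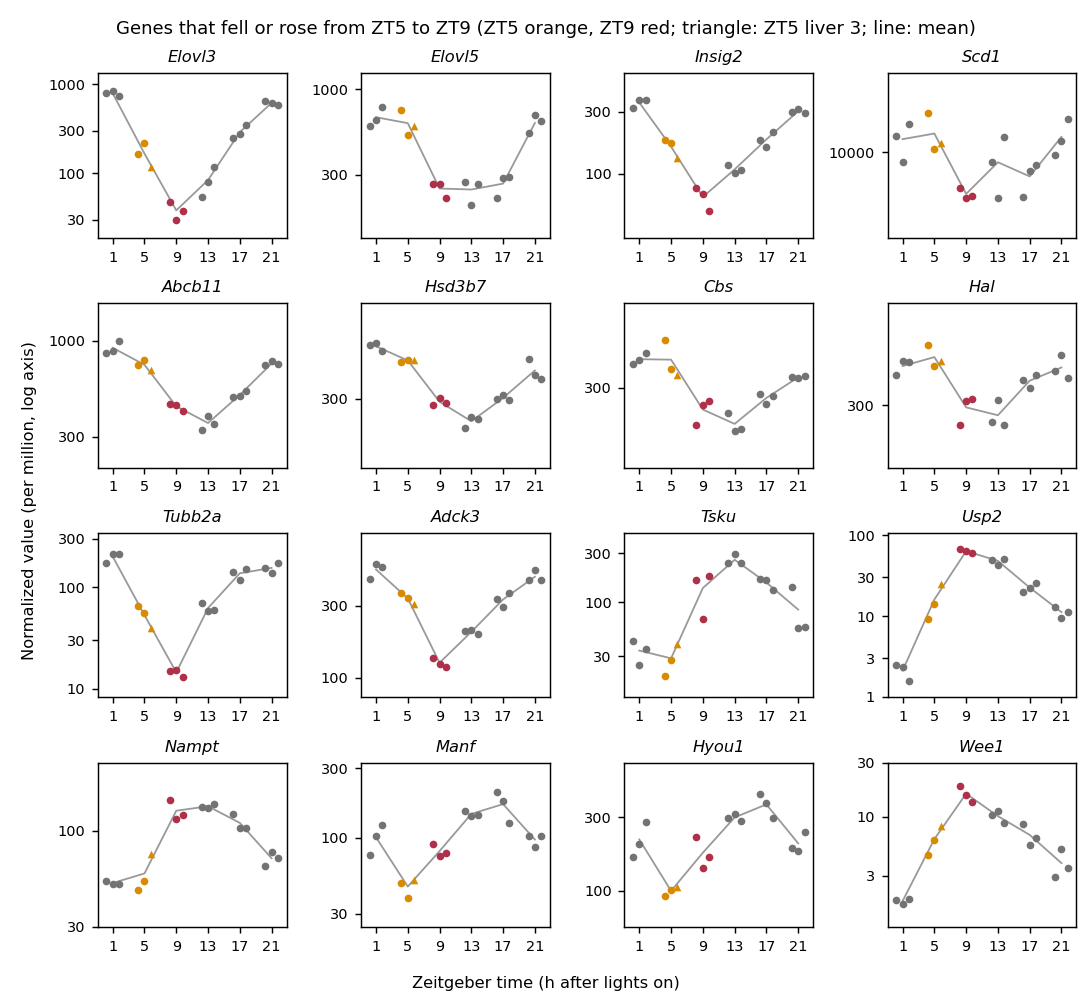
Normalized value (vertical log axis, per 1000000) of 16 genes of metabolism, clock output and protein folding in each of the 18 livers by zeitgeber time in hours (horizontal axis). Each point is 1 liver, orange at ZT5, red at ZT9 and grey at other times, the triangle is ZT5 liver 3 and the line joins the group means; *Elovl3*, *Tubb2a* and *Adck3* have their lowest mean at ZT9, and *Elovl5* stays low to ZT17.

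In drug metabolism, 2 of 35 genes rose and 2 fell, beside 1.06% and 1.25% of all genes. The count of rises was 4 with depth as a covariate or without ZT5 liver 3, and without ZT9 liver 1 there were 0 rises and 3 falls. *Por* and *Ces1d*, a carboxylesterase, rose, by 0.89 and 0.69, while *Cyp2b10* and *Gstm1* fell. *Cyp2b10*, a cytochrome P450 induced through the receptor CAR, fell from 12.8, 15.2 and 12.6 to 6.17, 4.33 and 5.86 (-1.18 ± 0.16, adjusted *P* = 0.000354), and then climbed to a mean of 69.4 at ZT13 (log2 difference from ZT9 of 3.44, adjusted *P* = 4.35e-10). *Gstm1*, a glutathione transferase, fell by 0.57 (adjusted *P* = 0.00950). The calls of *Ces1d*, *Por* and *Gstm1* were lost in 7, 3 and 2 of the 16 alternative analyses. With 1 liver left out, *Ces1d* was lost without ZT5 liver 1, ZT5 liver 2, ZT9 liver 1 or ZT9 liver 3 (adjusted *P* up to 0.208). *Por* was lost without ZT5 liver 2 or ZT9 liver 1 (up to 0.0726), and *Gstm1* without ZT5 liver 1 (0.0600). *Ces1d*, *Cyp2b10* and *Gstm1* have close relatives, and reads shared with them may be divided unevenly.

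Autophagy genes went both ways, with 1 of 29 higher and 3 lower, beside 1.06% and 1.25% of all genes. *Tfeb*, a transcription factor of lysosomal genes, rose from 6.04, 5.89 and 6.26 to 9.32, 8.62 and 12.2 (0.63 ± 0.15, adjusted *P* = 0.0281). *Sqstm1*, the cargo receptor p62, *Ctsl*, a lysosomal protease, and *Gabarapl1*, a relative of LC3, fell by 0.37, 0.42 and 0.43. All 4 calls were lost without ZT5 liver 1, as they were without ZT9 liver 1 or ZT9 liver 3.

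Among NAD genes, 2 of 19 rose and 1 fell, beside 1.06% and 1.25% of all genes, and 1 rose without ZT5 liver 2, ZT9 liver 1 or ZT9 liver 3 and with the 6 livers alone. *Nmrk1*, which makes NAD from nicotinamide riboside, rose from 21.6, 17.3 and 25.1 to 48.3, 29.8 and 40.0 (0.85 ± 0.17, adjusted *P* = 0.0107), beside *Nampt* above. *Kynu*, of the route from tryptophan, fell from 184, 198 and 178 to 144, 132 and 124 (-0.49 ± 0.07, adjusted *P* = 0.000326). In the cell cycle and p53 list 2 of 27 rose, *Wee1* and *Ccne1*, cyclin E1, which went from 1.01, 0.909 and 1.77 to 4.04, 3.31 and 3.23 (1.04 ± 0.19, adjusted *P* = 0.00616). The call of *Ccne1* was lost with the 6 livers alone and with a pseudocount of 0.1 or none. *Wee1* is known to be under direct clock control.

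Single calls were left in several lists, beside 1.06% of all genes higher and 1.25% lower. *Gys2* was the one of 26 glycolysis and glycogen genes, *Per1* the one of 20 glucocorticoid genes, *Irf7*, an interferon factor, the one of 30 acute phase and interferon genes (0.51, adjusted *P* = 0.0115) and *Id1*, a target of BMP signalling, the one of 23 heme and iron genes (-1.18, adjusted *P* = 0.0107). Of the 16 alternative analyses, *Gys2* lost its call in 1, *Per1* in 9, *Irf7* in 4 and *Id1* in 5, and those of *Irf7* included the fits without ZT5 liver 1 or ZT5 liver 3 and those of *Id1* the fits without ZT5 liver 2, ZT9 liver 2 or ZT9 liver 3. Of 21 tubulin and actin genes, *Tubb2a* and *Tuba4a* fell, the latter by 0.42 (adjusted *P* = 0.0485), a call that was lost in 11 of the 16 alternative analyses, among them 5 of the 6 that left out a liver (adjusted *P* up to 0.200). In this list 7 genes had ZT9 livers wholly below the ZT5 livers and 1 wholly above (8.83% and 8.01% of all genes). The glucocorticoid target *Fkbp5*, named after its values were seen, went from 17.9, 14.3 and 24.1 to 72.2, 30.3 and 34.8 without overlap, but was not called (1.17, adjusted *P* = 0.136).

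Other lists held no call by limma. These were gluconeogenesis and the fasting response (23 genes, of which 7 had an unadjusted *P* below 0.05, beside 12.4% of all genes), immediate early genes (3 of 17), heat shock chaperones (3 of 22), cold-inducible RNA-binding genes (0 of 2), ribosome biogenesis (4 of 29) and clock kinases and ubiquitin ligases (2 of 13). With voom weights these lists held 0 calls as well. In the gluconeogenesis list 1 gene was called higher under size factor scaling and without ZT5 liver 3 or ZT9 liver 2, and 1 was called lower with the 6 livers alone and with depth as a covariate, which also gave 1 heat shock gene called higher. The members with the smallest *P* were *Slc37a4*, the glucose 6-phosphate transporter (0.58, adjusted *P* = 0.0591), *Klf6* (-0.68, 0.224), *Dnaja1* (0.37, 0.251), *Rbm3* (0.10, 0.874), *Rrp12* (0.46, 0.168) and *Ppp1ca* (-0.23, 0.191). *Pck1*, the enzyme that commits carbon to glucose synthesis, ranged from 824 to 1596 at ZT5 and from 1143 to 2172 at ZT9.

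**Figure D5:**
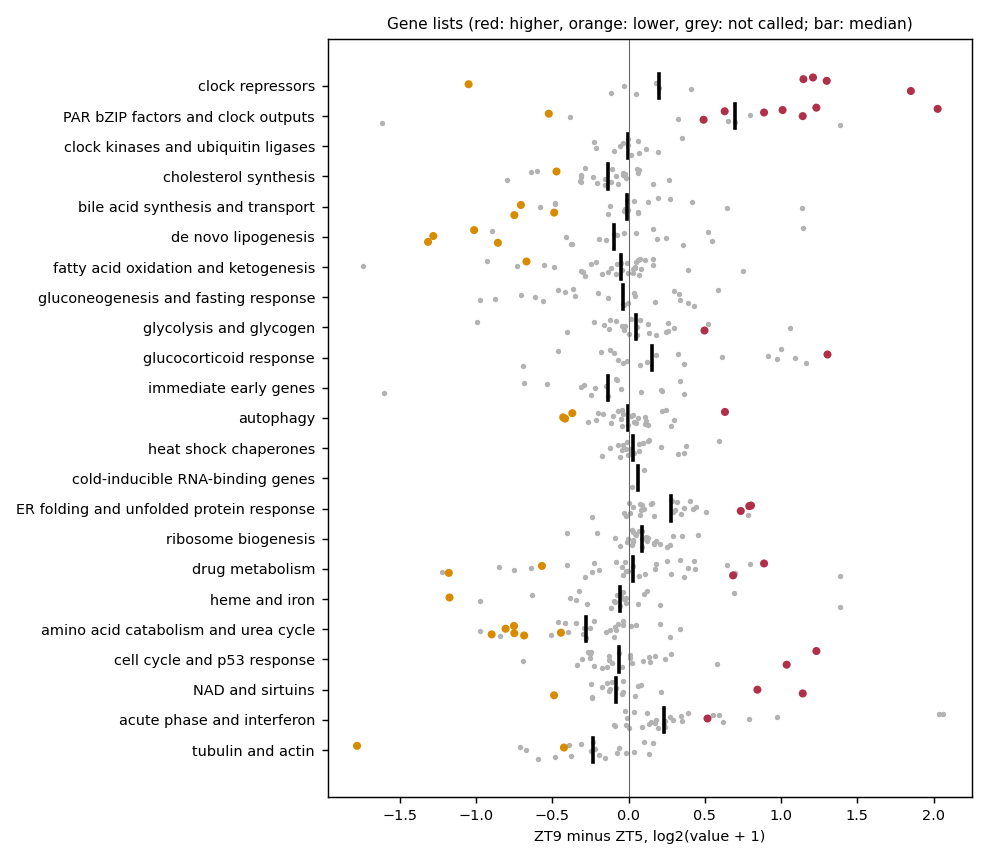
Log2 difference between ZT9 and ZT5 (horizontal axis, on log2(value + 1)) of each member of the gene lists (rows). Red points were called higher, orange points lower and grey points were not called, and the black bar is the median of the list, 0.28 for folding in the endoplasmic reticulum and -0.28 for amino acid catabolism.

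Cell type markers were checked in all 6 livers. The 10 hepatocyte markers were the most abundant set, summing to 105200, 91070 and 103700 at ZT5 and to 89510, 87490 and 88660 at ZT9, with *Alb* first. No marker of hepatocytes, Kupffer cells, endothelial cells, stellate cells, cholangiocytes, lymphocytes, neutrophils, red cells, exocrine pancreas or adipose tissue was called by limma or with voom weights, but under quantile normalization the hepatocyte marker *Ttr*, transthyretin, was lower (-0.48, adjusted *P* = 0.0446). At an unadjusted *P* below 0.05 there were 2 of 10 hepatocyte markers, 1 of 5 cholangiocyte markers and 1 of 9 lymphocyte markers, and 0 in the other sets. Only 3 of 8 neutrophil, 2 of 9 exocrine pancreas and 2 of 6 adipose markers were among the genes tested, and their sums reached at most 2.72, 10.6 and 13.8 in these livers. The red cell markers summed to 674, 257 and 172 at ZT5 and to 215, 167 and 170 at ZT9, with a median log2 difference of -1.17 over 5 genes, the highest sum being that of ZT5 liver 1. Kupffer cell markers summed to 449, 332 and 381 at ZT5 and to 344, 422 and 388 at ZT9, and their part in the calls was not tested. In bulk tissue, fewer cells of a type and less RNA per cell cannot be told apart.

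The called genes were also placed over the whole day. Of the 153 genes higher at ZT9, 68 (44.4%) had their highest mean at ZT9, 63 (41.2%) at ZT13 and 20 at ZT17, and 71 (46.4%) had their lowest mean at ZT5. Of the 181 lower genes, 95 (52.5%) had their lowest mean at ZT9 and 61 (33.7%) at ZT13, and 86 (47.5%) had their highest mean at ZT1. Over all genes, 16.0% were highest and 17.7% lowest at ZT9, 18.8% were highest and 18.4% lowest at ZT13, 16.9% were highest at ZT17, 16.8% were lowest at ZT5 and 14.4% were highest at ZT1. The call itself uses ZT5 and ZT9. None of the higher genes had its highest mean at ZT5 and none of the lower genes at ZT9, which leaves larger shares for the other times. The shares at all times are therefore given as a description.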

How the data were processed

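PolyA RNA of 18 mouse livers was sequenced as single reads. The authors removed adapters with cutadapt, mapped reads on the GRCm38 transcriptome and quantified them with RSEM (1.2.20 in the submitters' processing notes). The estimated counts were normalized with limma by the authors. Per the deposited table, each value is a signal, the estimated count plus 0.5 per 1000000 reads of an effective library size. Between 39.1% and 47.9% of values per liver were whole reads (within 0.001 reads), so count models were not used. Of 14451 genes, 2 at the floor in every liver were left out. The second deposited table, of TPM values, was not used.

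Groups came from the labelled ZT. limma 3.58.1 (R 4.3.3) fitted log2(value + 1) with a mean per time over the 18 livers, moderated with an intensity trend, and ZT9 was set against ZT5 with Benjamini–Hochberg adjustment over 14449 genes. The fit was tested on simulated data. Fold changes on this scale understate those of low genes. Genes named are those of the clock lists, the 10 largest rises and 10 largest falls among non-overlapping called genes with a mean of at least 1, and up to 4 called members of each list (the one with the smallest *P* where none was called). *Dbp*, *Hlf*, *Pnp*, *Alas1*, *Oat*, *Gls2*, *Cyp7a1*, *Pck1*, *Hspa5*, *Map2k6*, *Slc16a12* and *Coq10b*, among others marked so, were named after their values were seen. Some genes are not reported here. Members and lists were chosen with earlier results of these data known. Coordinates are from GENCODE M21 (GRCm38) and promoters from RefSeq (GRCm38.p6). Alternatives were the 6 livers alone, other pseudocounts, a filter on low values, other scalings, voom weights, other moderations, depth as a covariate and each liver left out. Summaries used Python 3.11.15.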

Additional observations from a re-analysis of the deposited data

How the results depend on the processing

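The main count was 334 genes, 153 higher and 181 lower. With the 6 livers alone it was 97 (44 and 53), of which 92 were shared, and without the trend in the moderation it was 222, with 92 higher. Leaving out 1 liver gave 138 to 282 calls, 61 to 130 higher and 77 to 158 lower. The other alternatives gave 260 to 340 calls. With depth as a covariate there were 260, of which 201 were shared with the main list (60.2% of it), and 14 of the 61 named calls were lost. Of the 61 named called genes none changed direction, and 28 stayed called with the 6 livers alone, 32 without ZT9 liver 3 and 33 without ZT5 liver 1. The cause was not tested.

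Directions turned only in genes that were not called. *Bhlhe41* was at 0.15 with depth as a covariate, and *Nfil3* at 0.0075 with quantile normalization and at 0.022 with voom weights. With 1 liver left out, the differences ran from -0.32 to 0.26 for *Bhlhe40*, from -0.62 to 0.17 for *Bhlhe41*, from -0.16 to 0.055 for *Nfil3* and from -0.0473 to 0.24 for *Rbm3*.

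No paired analysis was possible because each liver came from a different mouse, sampled once. Depth limits the low genes, of which 443 were at the floor in at least 1 of the 6 livers.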

Other observations

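Some gene families were looked at after the called genes had been seen, taking all tested members, and their counts are descriptions. Of 7 *Gstm* genes, glutathione transferases that lie side by side, 5 fell and none rose (1.25% and 1.06% of all genes), with a median log2 difference of -0.56. *Gstm4* went from 58.2, 55.1 and 53.3 to 37.5, 26.6 and 38.8, and *Gstm3* from 57.4, 41.2 and 47.8 to 26.9, 22.6 and 38.7. Without ZT5 liver 1, 2 of them were called, 3 were without ZT5 liver 3 or ZT9 liver 2, with depth as a covariate or without the trend in the moderation, and with the 6 livers alone none was, and reads may be divided among these similar genes.

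In the glycine cleavage system, which breaks down glycine in mitochondria, 2 of 4 genes fell, beside 1.25% of all genes. *Gldc*, the decarboxylase, went from 161, 126 and 107 to 70.0, 70.4 and 61.9 (-0.93, adjusted *P* = 0.000115), and *Amt*, the aminomethyltransferase, from 49.0, 42.8 and 39.7 to 26.3, 24.2 and 21.3 (-0.85, adjusted *P* = 0.000181). The other members, *Gcsh* and *Dld*, showed -0.01 and 0.06. Of the 4 genes of histidine breakdown, *Hal* and *Amdhd1* fell, beside the same share, the latter from 274, 240 and 224 to 131, 151 and 140 (-0.79, adjusted *P* = 2.16e-05). *Gldc*, *Amt*, *Hal* and *Amdhd1* were the genes called lower here, and each set kept a count of 2 under all 16 alternatives.

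Claudins are proteins of tight junctions, which seal bile canaliculi, and 2 of the 10 tested fell and none rose, beside 1.25% and 1.06% of all genes, with a median of -0.09. *Cldn1* went from 114, 78.2 and 61.9 to 25.6, 56.5 and 35.2 (-1.13, adjusted *P* = 0.00712) and *Cldn2* from 86.1, 95.2 and 107 to 63.3, 70.1 and 65.4 (-0.52, adjusted *P* = 0.00757). With depth as a covariate 1 was called and with the 6 livers alone none. *Cldn7* went the other way without overlap, from 0.284, 0.303 and 0.229 to 0.638, 0.885 and 0.703, and was not called (0.45, adjusted *P* = 0.153).

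Families with rises were looked at in the same way. Of 6 *Akr1c* genes, aldo-keto reductases of similar sequence, *Akr1c14* and *Akr1c19* rose, by 0.67 and 0.70, and none fell (1.06% and 1.25% of all genes), but neither was called without ZT5 liver 1, ZT9 liver 1 or ZT9 liver 3, without the trend in the moderation or with the 6 livers alone. Of 9 genes of the signal recognition particle and its receptor, which bring new secretory proteins to the endoplasmic reticulum, *Srp68* and *Srprb* rose, by 0.32 and 0.42, and none fell (1.06% and 1.25% of all genes). In 4 of the 9 every ZT9 liver was above every ZT5 liver (8.01% of all genes), and 1 gene was called without ZT5 liver 3 and 0 without any other liver, with depth as a covariate or with the 6 livers alone.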
